A study of Mus musculus with 2 samples.

Results

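The genes described here include 3 miRNAs encoded within heavy-chain myosin genes, Mir208a, Mir208b and Mir499, called myosin-encoded below. A further one, Mir6923 in Myh3, is not among them and is given with the search of myosin genes. Also described are the miRNA gene Mir486 in the ankyrin gene Ank1 and Mir3107 on its opposite strand. All were chosen by gene symbol, and these 5 genes are part of 2202 miRNA genes counted. The counts come from microRNA sequencing of the gastrocnemius, a calf muscle, of 2 female mice of the B6CASTF1/J strain, which is an F1 hybrid of a C57BL/6 and a CAST parent. The mice were 10 days old. Both mice carry the same strain, sex and age, and no treatment or engineered allele is named for either. The labels number them as biological replicates 1 and 2, with a separate animal number and the same donor entry for each, so that there is 1 group and no contrast between conditions. They were read as separate animals from those numbers, and if they were samples of a single mouse, each SD and each difference between them would measure the spread between its samples. Per the labels, total RNA was the input and molecules shorter than 30 bases were selected.

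Replicate 1 gave 3510897 reads on the sense strand of miRNA genes and replicate 2 gave 3949733. Each level is a count per 1e6 of those reads (CPM). Genes that reached 2 CPM in each library are called detected, which holds for 332 of 2202. The muscle label was checked against the miRNAs of striated muscle outside this set. Mir206, a miRNA of skeletal muscle, had 115948 CPM in replicate 1 and 95264 CPM in replicate 2, and 5 of the 8 genes on that list were detected. Of the marker lists for other cells, 1 of 2 endothelial, 2 of 2 erythroid, 5 of 5 leukocyte, 4 of 6 epithelial genes and 2 of 2 genes of smooth muscle and stroma were detected, against 0 of 6 neural genes. Copies of the neural genes share sequence, and reads that aligned to several places were set aside, so this count does not show whether neural miRNAs were present. The liver miRNA Mir122 was detected as well.

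Muscle myosin heavy chains are the motor proteins of the contractile filament, and several of their genes carry a miRNA in an intron, so that the miRNA is transcribed together with the myosin. Myh6 encodes the fast cardiac heavy chain, Myh7 the slow heavy chain that heart and slow skeletal fibres share, and Myh7b a further slow-type heavy chain. The miRNAs of these genes are known in mice to repress transcriptional repressors of slow fibre genes, among them Sox6. The miR-486 miRNA, made from an intron of Ank1, is known from muscle growth and differentiation, and it is also abundant in erythroid cells. A miRNA recognises its targets mainly through its seed, bases 2 to 8 from the 5′ end.

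The mature sequences of the myosin-encoded miRNAs are shown because their seeds decide which of them can be read as a family. RefSeq (build GRCm38.p6) gave mature sequences for 3 of the 5 genes, 6 sequences in all, and Mir486 and Mir3107 are named only. In the lines below, capitals mark the seed.
mmu-miR-208a-3p: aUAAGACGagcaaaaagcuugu
mmu-miR-208b-3p: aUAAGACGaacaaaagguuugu
mmu-miR-499-5p: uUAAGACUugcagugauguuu
mmu-miR-208a-5p: gAGCUUUUggcccggguuauac
mmu-miR-208b-5p: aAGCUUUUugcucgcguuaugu
mmu-miR-499-3p: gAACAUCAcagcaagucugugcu

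The hairpins of Mir208a, Mir208b and Mir499 therefore each hold an arm that starts its seed with the same 6 bases, UAAGAC, at positions 2 to 7. The seed UAAGACG was shared by miR-208a-3p and miR-208b-3p and by no other of the 1738 mature mouse miRNAs in the RefSeq table. The 6 bases at positions 2 to 7 were shared by miR-208a-3p, miR-208b-3p and miR-499-5p, again by no other of the 1738. Counted from the 5′ end, miR-208a-3p differed from miR-208b-3p at 3 of 22 bases, G10A, A16G and C18U, all outside the seed. From miR-208a-3p to miR-499-5p, 9 of 21 bases differed, and G8U is the difference that falls within the seed. Over the same 21 bases, miR-208b-3p and miR-499-5p differed at 11. The other arms of Mir208a and Mir208b also shared a seed, AGCUUUU, and differed at 6 of 22 bases.

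The hairpins are shown because the deposited counts are sums over a whole hairpin. Capitals mark both mature arms in each, and the reads of the 5′ and the 3′ arm cannot be told apart in these counts.
Mir208a: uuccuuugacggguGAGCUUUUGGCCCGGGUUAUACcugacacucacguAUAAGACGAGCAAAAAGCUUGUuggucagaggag
Mir208b: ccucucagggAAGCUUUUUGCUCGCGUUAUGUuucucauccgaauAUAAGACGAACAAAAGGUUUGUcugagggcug
Mir499: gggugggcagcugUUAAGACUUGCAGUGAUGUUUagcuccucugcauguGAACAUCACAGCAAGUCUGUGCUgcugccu

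Each hairpin lies in an intron of its host. Mir208a (ENSMUSG00000065432.1, build mm10, chromosome 14, 54949060 to 54949142, minus strand) is 83 bases long. It lies in intron 29 of 38 in both Myh6 transcripts that span it, an intron of 542 bases. Mir208b (ENSMUSG00000077928.1, chromosome 14, 54975700 to 54975776, minus strand) is 77 bases long and lies in intron 31 of 40 in both spanning transcripts of Myh7, an intron of 461 bases. The 2 genes are 26.6 kb apart, since Myh6 and Myh7 are neighbours on the same strand. Mir499 (ENSMUSG00000076312.1, chromosome 2, 155622880 to 155622958, plus strand) is 79 bases long and lies in intron 19 of 41 of the Myh7b transcript, an intron of 481 bases.

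Mir486 (ENSMUSG00000070084.3, chromosome 8, 23142555 to 23142682, plus strand) is 128 bases long. It lies within an intron of all 15 annotated Ank1 transcripts that span it, 167.7 kb from the 5′ end of a host gene of 175.7 kb. Mir3107 (ENSMUSG00000106471.1, chromosome 8, 23142573 to 23142662, minus strand) is 90 bases long, and all 90 bases overlap Mir486 on the other strand. RefSeq lists mir-486a as a synonym of Mir486 and mir-486b as a synonym of Mir3107.

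**Figure D1:**
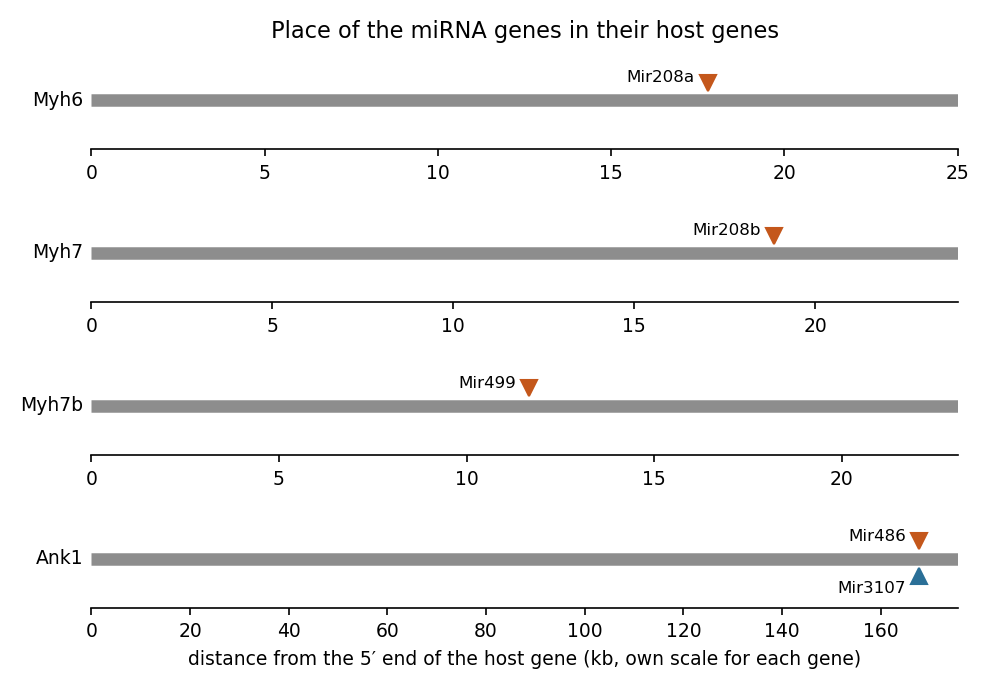
Place of the 5 miRNA genes along their host genes. The x axis is the distance in kb from the 5′ end of each host, with its own scale per host, grey bars are the host genes, downward triangles are miRNA genes on the host's strand and the upward triangle is Mir3107 on the opposite strand. Mir486 and Mir3107 sit at the same place near the 3′ end of Ank1, while Mir499 sits 11.7 kb into the 23.1 kb of Myh7b.

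Among the miRNAs of the myosin genes, Mir499 was the most abundant. Mir499 had 1179 reads in replicate 1 and 1358 reads in replicate 2, which is 335.8 and 343.8 CPM, or 339.8 ± 5.66 CPM (SD, n = 2). The 2 animals thus gave nearly the same level of the Myh7b miRNA, with a coefficient of variation of 1.67%. It held position 126 among all miRNA genes by mean level, above 62.0% of the detected genes, whose median was 129.7 CPM.

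Mir208b, the miRNA of the slow myosin gene Myh7, had 290 reads in replicate 1 and 475 reads in replicate 2. Its levels were 82.6 and 120.3 CPM, or 101.4 ± 26.6 CPM (SD, n = 2), at position 181. The coefficient of variation of 26.3% was the largest among the 5 genes. Replicate 1 was the lower animal, and the exact 95% Poisson intervals of its level, 73.4 to 92.7 CPM, and of replicate 2, 110 to 132 CPM, did not overlap.

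Mir208a, the miRNA of the cardiac myosin gene Myh6, had 5 reads in replicate 1 and 7 reads in replicate 2. Its levels were 1.42 CPM (exact 95% Poisson interval 0.462 to 3.32) and 1.77 CPM (0.713 to 3.65), below the detection limit in both animals. It was nevertheless above 0, at 1.60 ± 0.246 CPM (SD, n = 2), and held position 379. With 5 and 7 reads, a difference between the animals was not detectable at this depth, and the interval of the fold of replicate 1 over replicate 2 ran from 0.201 to 2.94.

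Mir208a, Mir208b and Mir499 together held 419.8 CPM in replicate 1 and 465.9 CPM in replicate 2. Mir499 exceeded Mir208b by 4.07-fold in replicate 1 and by 2.86-fold in replicate 2, and it exceeded Mir208a by 235.8-fold and 194.0-fold. Mir208b exceeded its neighbour Mir208a by 58.0-fold and 67.9-fold. The order Mir499, Mir208b, Mir208a was the same in both animals, and no level of a gene overlapped with that of the next.

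The balance between the pair of slow myosin miRNAs was compared within each library. Mir208b made up 19.7% of the 1469 reads on Mir208b and Mir499 in replicate 1 (Wilson 95% interval 17.8% to 21.9%) and 25.9% of 1833 reads in replicate 2 (24.0% to 28.0%). The intervals do not overlap, but they cover counting error only, and with 1 library per animal no spread between repeated samples of an animal stands behind the difference. A share within a library does not depend on how the libraries are scaled. Within the Mir208 pair the share of Mir208a was 1.69% of 295 reads in replicate 1 (0.726% to 3.91%) and 1.45% of 482 reads in replicate 2 (0.705% to 2.97%), and these intervals overlap.

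**Figure D2:**
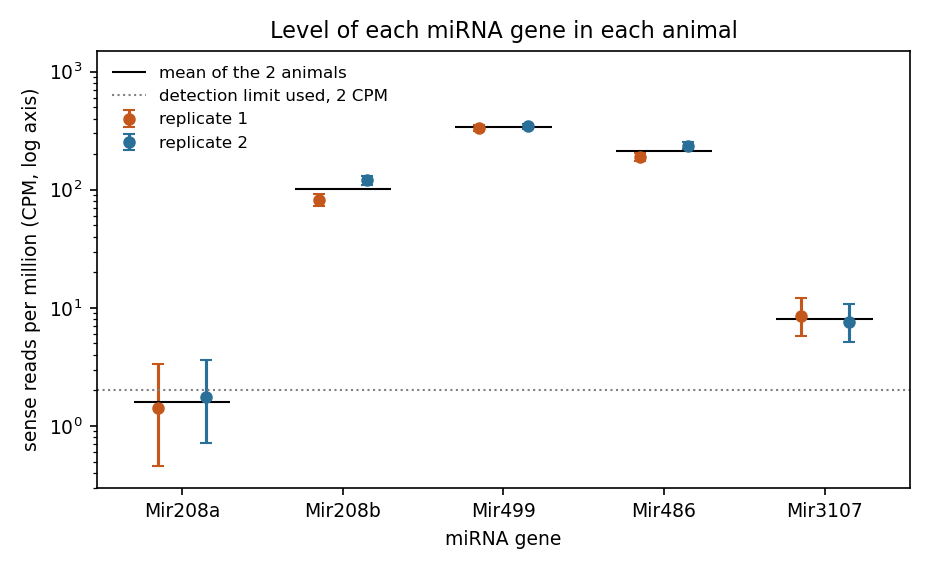
Level of each gene in each animal, in CPM on a log axis. Points are the libraries of replicate 1 (left) and replicate 2 (right), bars are exact 95% Poisson intervals of counting error, black lines are means of the 2 animals and the dotted line is the limit of 2 CPM. Mir499 stands near 340 CPM in both animals, Mir208b is lower in replicate 1, and Mir208a lies under the limit in both.

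The search for other miRNA genes within myosin heavy-chain and ankyrin genes covered 17 genes, 14 of them named Myh. It found 8 miRNA genes in 6 hosts. Besides the 5 described here these were Mir6923 in Myh3, the embryonic heavy chain of skeletal muscle, and Gm44494 and Gm44365, which lie on the strand opposite Ank2 and Ank1. Mir6923 had 6 reads in replicate 1 and 3 reads in replicate 2, or 1.23 ± 0.671 CPM (SD, n = 2), which is also below the detection limit. Gm44494 and Gm44365 had 0 reads in both animals, a limit of 0.854 CPM for replicate 1 and of 0.760 CPM for replicate 2. Of the 4 miRNA genes on myosin loci, Mir499 and Mir208b passed the limit. Mir208a would also pass it, at 2.33 CPM in replicate 1 and 2.90 CPM in replicate 2, if the 5 most abundant genes were left out of the library total.

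At the Ank1 locus nearly all counted reads were on the strand of Mir486. Mir486 had 666 sense reads in replicate 1 and 930 in replicate 2, which is 189.7 and 235.5 CPM, or 212.6 ± 32.4 CPM (SD, n = 2), at position 149. Mir3107 had 30 sense reads in each animal, which is 8.54 CPM in replicate 1 (exact 95% Poisson interval 5.77 to 12.2) and 7.60 CPM in replicate 2 (5.12 to 10.8), or 8.07 ± 0.671 CPM (SD, n = 2). Both genes passed the limit of 2 CPM in both animals. These levels leave out reads that match both genes alike.

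Mir3107 held 4.31% of the 696 reads at this locus in replicate 1 (Wilson 95% interval 3.04% to 6.09%) and 3.13% of 960 reads in replicate 2 (2.20% to 4.43%). Mir486 exceeded it by 22.2-fold and 31.0-fold. The intervals of the share overlap, so no difference in strand balance between the animals was detectable at this depth.

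The share of Mir3107 averaged 3.72% ± 0.838 (SD, n = 2) of the counted reads, and it was set beside other miRNA genes that overlap on opposite strands. There were 32 such pairs in the annotation, and in 26 of them the stronger gene had at least 10 reads over both libraries. Of these 26 pairs, 17 had 0 reads on the weaker gene, and 1 had a larger share there than Mir3107. That pair was Mir24-1 with Mir3074-1, which held 22.6% ± 8.75 (SD, n = 2). At least 10 reads on each gene in each library were found in 3 other pairs, the one just named, Mir136 with Mir3071 at 2.10% ± 0.780 and Mir337 with Mir3544 at 0.611% ± 0.166 (SD, n = 2 each). Windows of 18 bases present on both strands, whose reads match both genes, occurred in 3 of the 26 pairs, that of Mir486 among them, and in none of the 3 other pairs just named. The shares of these pairs therefore rest on unlike parts of the hairpins and give no ranking of strand balance. Windows that the other pairs share with precursors elsewhere were not searched, so reads lost in that way are not known.

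The counting of Mir486 and Mir3107 differs from that of the myosin-encoded genes. The antisense count of Mir486 was 30 in each animal and that of Mir3107 was 666 and 930, which are the sense counts of the partner gene. The 3 myosin-encoded genes had 0 antisense reads in both animals. Counted without strand, Mir486 and Mir3107 had 0 reads in both animals, while Mir208a, Mir208b and Mir499 kept their sense counts exactly. Over all genes, 542673 reads in replicate 1 and 686780 in replicate 2 were ambiguous in the unstranded counts, against 0 in the sense counts.

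**Figure D3:**
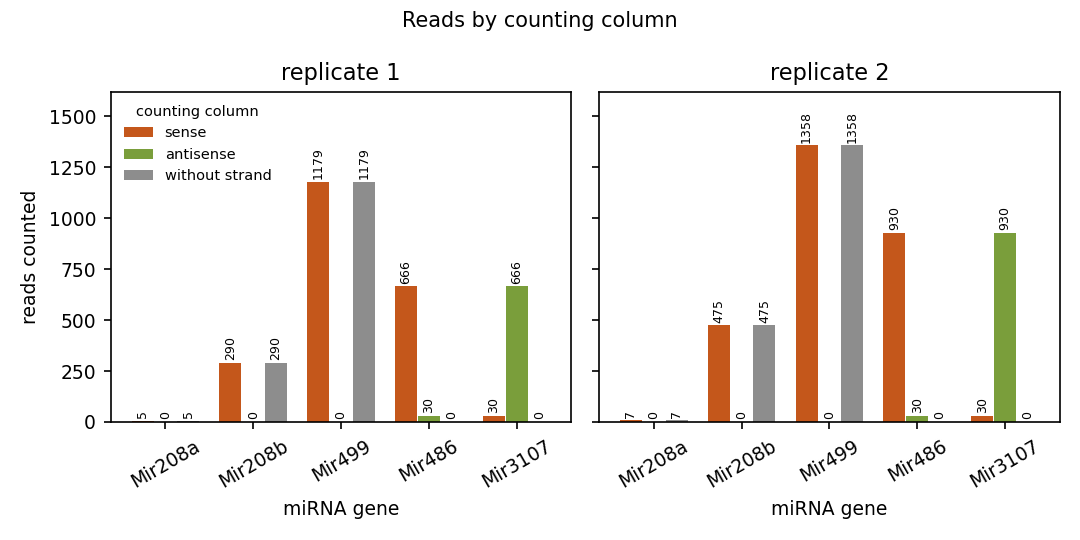
Reads of each gene in the sense, antisense and unstranded counts, in replicate 1 (left) and replicate 2 (right). Bars are read counts with their value printed above. The sense count of Mir486 (666 and 930) reappears as the antisense count of Mir3107, and both genes are at 0 without strand, whereas Mir499 and Mir208b have equal bars for sense and unstranded counts.

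Reads that aligned to several places were set aside by the deposited counts, 42.6% of the reads in replicate 1 and 46.4% in replicate 2. None of the 18-base windows of Mir208a, Mir208b and Mir499 occurred in another annotated precursor or on their own opposite strand. The longest stretch that Mir208a and Mir208b share is 10 bases, so that a read of mature length that matches 1 of them exactly does not match the other. In Mir486, a stretch of 22 bases recurs as its own reverse complement, and 10 of its 111 windows of 18 bases are found on both strands. This stretch is as long as a mature miRNA such as miR-208a-3p, and a read made up of it matches Mir486 and Mir3107 alike. The levels of Mir486 and Mir3107 therefore cover only reads that reach beyond it, and the number of such reads that were set aside was not measured. For this reason the level and position of Mir486, and its place between Mir499 and Mir208b in the order of levels, hold for counted reads only.

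In that order Mir499 exceeded Mir486 by 1.77-fold in replicate 1 and 1.46-fold in replicate 2, and Mir486 exceeded Mir208b by 2.30-fold and 1.96-fold. Mir208b exceeded Mir3107 by 9.67-fold and 15.8-fold, and Mir3107 exceeded Mir208a by 6-fold and 4.29-fold. The levels of neighbours in this order did not overlap between the 2 animals. Only RNA shorter than 30 bases was selected, so the counts were not divided by gene length.

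Set among all miRNA genes, each detected member had neighbours that its spread did not separate. Mir499 stood between Mir15b (346.0 ± 17.8 CPM) and Mir146 (338.0 ± 25.1 CPM), a miRNA of leukocytes. Mir486 stood between Mir421 (214.5 ± 21.3 CPM) and Mir374b (198.1 ± 34.9 CPM). Mir208b stood between Mir210 (101.6 ± 28.4 CPM), a miRNA known from hypoxia, and Mir700 (98.5 ± 2.89 CPM). Mir3107 stood between Mir3064 (8.18 ± 3.11 CPM) and Mir181b-1 (7.66 ± 0.448 CPM). These are SDs with n = 2, and in all 8 cases the levels of the neighbour overlapped with those of the member.

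**Figure D4:**
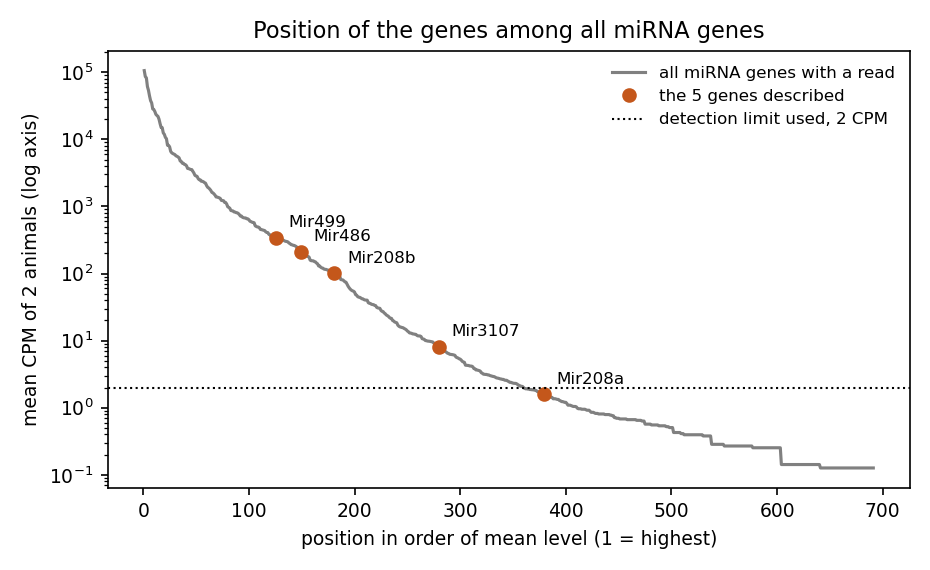
Mean level of each miRNA gene with at least 1 read, as CPM of 2 animals on a log axis, against its position in order of level. The grey line is all genes, orange points are the 5 genes described and the dotted line is the limit of 2 CPM. Mir499, Mir486 and Mir208b lie at positions 126, 149 and 181, Mir3107 at 280 and Mir208a at 379.

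In uniquely aligned reads, the members were far below Mir206. Mir206 exceeded Mir499 by 345.3-fold in replicate 1 and by 277.1-fold in replicate 2. All 5 members together held 0.0618% of the counted reads in replicate 1 and 0.0709% in replicate 2. Of the other miRNAs of striated muscle, Mir1a-2 had 77.4 ± 14.0 CPM and Mir133b 30.8 ± 4.83 CPM (SD, n = 2 each), which is below Mir208b. Mir1a-1 (3.61 ± 0.269 CPM) and Mir133a-1 (4.07 ± 2.13 CPM) were detected and Mir133a-2, Mir1b and Mir133c were not. Windows of 18 bases that occur in another annotated precursor numbered 11 in each of Mir1a-1, Mir1a-2 and Mir1b, 21 in each of Mir133a-1 and Mir133a-2 and 4 in Mir133b, against 0 in Mir206, Mir499 and Mir208b. How many reads of the miR-1 and miR-133 genes were set aside was not measured, so that their order against Mir206, Mir499 and Mir208b is not known.

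Replicate 1 was compared with replicate 2 for each gene by an exact two-sided binomial test, conditional on the totals of the libraries. Benjamini-Hochberg adjustment covered the 395 genes whose counts summed to 10 or more. This compares the 2 libraries, each of a single animal, and not conditions. The p-values weigh counting error only and take no account of the spread between animals. With an adjusted p under 0.05 and at least a 2-fold difference, 0 of the 5 genes were called, against 7.09% of all genes tested. Without the fold limit 2 of the 5 passed, Mir208b and Mir486, against 41.3% of all genes tested, and 2 of the 5 had an unadjusted exact p under 0.05, against 47.1%. Both were lower in replicate 1, whereas 17.0% of all genes tested passed without the fold limit and were lower there. Counted in either direction, the share of members that passed without the fold limit is near that of all genes.

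Mir208b was lower in replicate 1, at a log2 ratio of replicate 1 over replicate 2 of -0.54 (0.687-fold, 95% interval 0.591 to 0.797, exact adjusted p = 1.72e-06). Of the 50 other genes within 2-fold of its mean level, 7 had a larger difference between the animals, and the median size of their log2 ratio was 0.18. Mir486 was lower in replicate 1 at a log2 ratio of -0.31 (0.806-fold, 0.728 to 0.891, exact adjusted p = 8.10e-05), and 12 of 63 genes of similar level had a larger difference. With both libraries scaled to all reads of the file instead, Mir486 no longer passed (log2 ratio -0.16, exact adjusted p = 0.0603), whereas Mir208b did (-0.39, exact adjusted p = 7.84e-04).

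Mir499 had a log2 ratio of -0.03 (0.977-fold, 95% interval 0.903 to 1.06, exact adjusted p = 0.705), and 55 of 62 genes of similar level had a larger difference. Mir3107 had a log2 ratio of 0.17 (1.12-fold, 0.655 to 1.93, exact adjusted p = 0.800) and Mir208a of -0.28 (0.804-fold, 0.201 to 2.94, exact adjusted p = 0.862). The wide intervals of Mir3107 and Mir208a come from 60 and 12 reads in all and include differences of more than 1.5-fold in either direction. Over the 5 members the median log2 ratio was -0.28 with 4 of 5 below 0, beside a median of 0.03 over all 395 genes tested with 182 below 0.

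**Figure D5:**
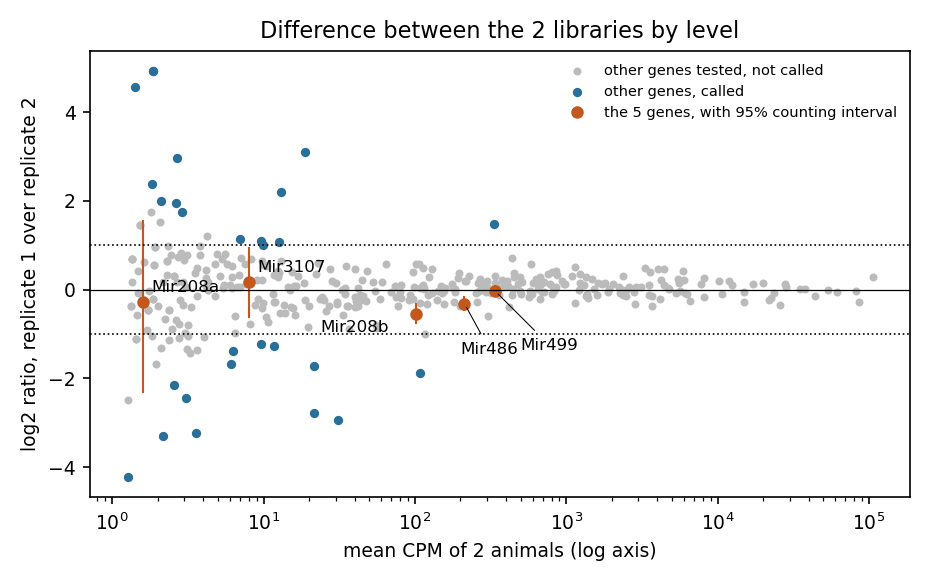
Log2 ratio of replicate 1 over replicate 2 against mean CPM on a log axis, for genes whose counts summed to 10 or more. Orange points are the 5 genes with 95% intervals of counting error, blue points are other genes that passed the test and the 2-fold limit, grey points the rest, and dotted lines mark 2-fold. Mir208b and Mir486 lie below 0 but inside the 2-fold lines, and Mir499 lies at -0.03.

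Other miRNAs moved between the same libraries, some in the opposite direction. Mir206 was higher in replicate 1, at a log2 ratio of 0.28, whereas Mir1a-2 was lower there, at -0.37 (exact adjusted p = 0.00704). Erythroid cells are a known source of miR-486, so the 2 erythroid miRNAs were set beside it. Mir451a, a miRNA of red blood cells, had 1911 CPM in replicate 1 and 1712 CPM in replicate 2, and Mir144 had 155.2 and 153.7 CPM. Together they had 2066 CPM in replicate 1 and 1865 CPM in replicate 2, while Mir144 alone differed little (log2 ratio 0.01, exact adjusted p = 0.920). In counted reads, Mir451a exceeded Mir486 by 10.1-fold in replicate 1 and by 7.27-fold in replicate 2. Reads that match Mir486 and Mir3107 alike are missing from the count of Mir486, so the fold between the miRNAs themselves is not known. The part of erythroid cells in the level of Mir486 was not tested.

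The lists for further cell types also differed between the libraries. The liver miRNA Mir122 was 2.79-fold higher in replicate 1 (491.0 against 175.7 CPM), and the 6 epithelial miRNAs summed to 65.8 and 30.9 CPM in replicates 1 and 2. Among the epithelial miRNAs the largest difference was that of Mir205, at 21.4 and 4.56 CPM. Mir200a (1.14 and 2.53 CPM) and Mir141 (0.570 and 1.01 CPM) were lower in replicate 1, and the others were higher. The 5 leukocyte miRNAs summed to 1099 and 974.2 CPM, and Mir143 and Mir145a of smooth muscle and stroma summed to 23481 and 29892 CPM. The 6 neural miRNAs summed to 0.285 and 2.28 CPM, with 4 of the 6 at 0 in both animals, though copies of these genes share sequence. The endothelial Mir126a had 42036 and 46314 CPM, and Mir126b was at 0 in both animals. The part of these differences in the lower Mir208b and Mir486 of replicate 1 was not tested. In dissected muscle, fewer cells of a type and less RNA per cell cannot be told apart.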

How the data were processed

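MicroRNA libraries of the gastrocnemius of 2 mice were analysed. The deposited files hold raw counts for each miRNA gene, which the authors had not normalized, in 3 columns (without strand, sense and antisense) and 4 summary rows, which stayed out of totals and tests. Per the file headers deposited beside the counts, the build was mm10 and the annotation GENCODE M21; no source used here names the aligner or its filters. The column meaning was read from the layout and the totals. All 2202 identifiers matched GENCODE M21. In all, replicate 1 had 8152102 reads and replicate 2 had 10176117. Of these, unaligned reads were 11.8% and 12.3% and reads outside miRNA genes 2.55% and 2.52%.

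Sense counts were scaled to CPM here. Intervals, exact p-values and the limit of 3 counts set for a gene at 0 cover counting error only, since reads carry no molecular identifiers. The exact binomial test was run in Python 3.11.15 with SciPy 1.17.1 and checked on simulated Poisson counts. Those counts held counting error only, as the test assumes, so the check does not cover spread between animals. Log2 ratios have 0.5 added to each count. Scaling factors came from edgeR 4.0.16 and DESeq2 1.42.0 in R 4.3.3, as alternatives. edgeR's quasi-likelihood test has no residual degrees of freedom with 1 library on each side. Windows of 18 bases of the members and of the other miRNAs of striated muscle were searched in all annotated precursors on both strands. For the opposite-strand pairs the search covered the genes of each pair only. Named genes were the 5 members, the genes just above and below each detected member, opposite-strand pairs, miRNA genes in Myh and ankyrin genes and the cell type lists. The members and lists were chosen with earlier results of these data known.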

Additional observations from a re-analysis of the deposited data

How the results depend on the processing

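Of 79 recomputed values, 18 were fixed by construction, namely those that leave out an animal and the unstranded shares. Of the other 61, 44 stayed within the spread between the animals, within 1.5 times the main count or on the same side of the threshold. Some of these 61 were also settled by the arithmetic, namely levels under TMM, DESeq2 or changed totals and unstranded levels of Mir486 and Mir3107. The count of 44 is therefore no measure of stability. TMM factors (1.01 for replicate 1 and 0.990 for replicate 2) and DESeq2 factors (0.961 and 1.04) moved no mean level beyond the spread between the animals. With 2 libraries these factors pull in opposite directions, so a mean could hardly change and this says little about stability. At 2-fold, 0 members were called under any scaling or without strand. Scaling to all reads of the file gave 0.651 CPM for Mir208a, 41.1 for Mir208b, 139.0 for Mir499, 86.5 for Mir486 and 3.31 for Mir3107. A total without the 5 most abundant genes gave 2.61 (above the limit of 2 CPM), 165.9, 555.8, 347.7 and 13.2 CPM in the same order. Both change the denominator by construction. Unstranded counts gave 1.91 CPM for Mir208a, 406.7 for Mir499, and 0 for Mir486 and Mir3107, whose share then has no value. The log2 ratio of Mir499 reversed to 0.12 with all reads, a scaling that put the median of all genes at 0.18, against 0.03. Genes called numbered 28, 25 to 30 under the other scalings and filters, and 163 with no fold limit, where 2 members passed.

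Leaving out an animal gave ranges of 1.42 to 1.77 CPM for Mir208a, 82.6 to 120.3 for Mir208b, 335.8 to 343.8 for Mir499, 189.7 to 235.5 for Mir486 and 7.60 to 8.54 for Mir3107. The shares then ran from 19.7% to 25.9% for Mir208b beside Mir499, 1.45% to 1.69% for Mir208a beside Mir208b and 3.13% to 4.31% for Mir3107 beside Mir486. No paired analysis was possible because the labels give a single group. With 2 animals the SD is imprecise, and the 5 to 7 reads of Mir208a limit any comparison of it.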
